A study of Mus musculus with 6 samples.

Results

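The forkhead family was followed in BV2, a virally immortalised mouse line derived from microglia, the macrophages that reside in the brain. Its members were taken by name: every probe of the array whose gene symbol is FOX with a family letter from A to S and a number. This gave 42 probes for 40 genes, out of 26423 probes in all. The FAD-dependent genes Foxred1 and Foxred2, which carry no forkhead domain, fell outside the rule, as did the antisense gene Foxl2os and 1 Foxf1 probe listed under the older symbol FOXF1A.

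Cells were cultured for 1 h without addition or with the purine adenine, from which cells can make nucleotides by salvage. There were 6 single-colour arrays: 2 of untreated wild-type cells, 2 of cells at a lower adenine dose and 2 at a higher dose. Sample titles name 20 and 80 µM, whereas the sample characteristics name 80 and 250 µM, so the groups are called lower and higher dose. All 6 samples are 1 clonal line, and no label says if 2 arrays of 1 condition were grown apart, so the errors and p-values measure only the spread between these samples, which may be technical. Values are spot intensity with background subtracted, made comparable between arrays by quantile normalization, and a log2 change of 1 is a doubling of this normalized intensity. The files carry no detection calls, so brightness is described by whether a probe's mean lies above the median probe. Array medians as deposited ran from 125 to 170 units, and of 15 microglia and macrophage markers measured, 14 lay above the median probe, including Laptm5, Cd68 and Csf1r; at the higher dose 4 of the 15, Fcer1g, Fcgr3, Itgam and Aif1, rose (26.7%, beside 11.8% of all named genes), while 7 of the 15 values were positive and 8 negative, with a median of −0.13. The higher-dose arrays correlated with the other arrays at 0.9287 to 0.9406 (Pearson's r over bright probes) and the other 4 arrays with each other at 0.9782 to 0.9858.

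Forkhead proteins are transcription factors that share a winged-helix domain by which they bind DNA. FoxO proteins are held in the cytoplasm when insulin and growth factor signalling activates the kinase AKT, and move to the nucleus when it falls. FoxM1 drives genes of mitosis, FoxP proteins act mostly as repressors in development and immunity, and Foxj1 is the master regulator of motile cilia in ependyma, airway and other ciliated epithelia, cell types far from macrophages.

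Foxj1 rose at both doses. The probe read 81 and 69 units in the controls, 1568 and 1606 units at the lower dose, and 3769 and 2760 units at the higher dose, as deposited. No array of one group overlapped with an array of another. After normalization the controls stood at 92 and 72 units, the lower dose at 1450 and 1420, and the higher dose at 3810 and 3020. Both controls lay below the median of their own arrays, at the 41.8 and 36.7 percentile, while the lower-dose arrays placed the probe at the 81.1 and 80.8 percentile and the higher-dose arrays at the 90.9 and 88.8 percentile.

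**Figure D1:**
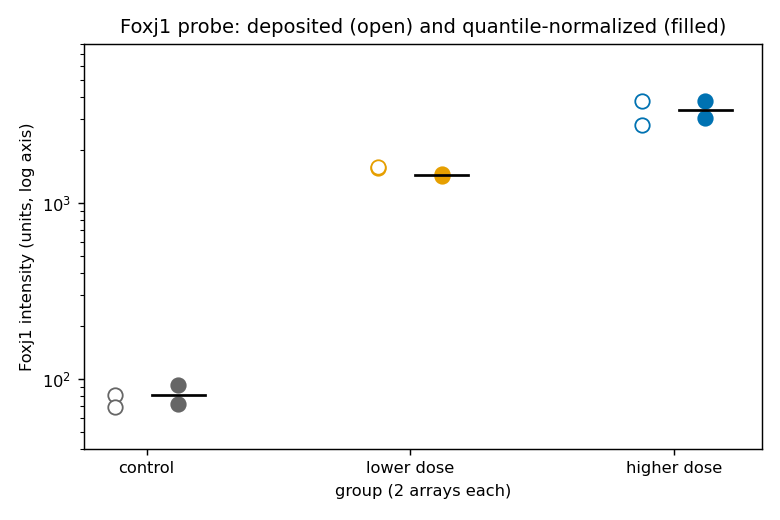
Foxj1 probe intensity in units on a log axis for the 3 groups of 2 arrays; open points are deposited values, filled points quantile-normalized values, and lines the geometric mean of the latter. The controls lie at 72 and 92 units, the lower dose at 1420 and 1450 and the higher dose at 3020 and 3810 after normalization.

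The normalized change was 4.14 ± 0.21 (log2, SE, n = 2 per group) at the lower dose, 17.7-fold, with limma's Benjamini-Hochberg adjusted p = 0.0444, and 5.38 ± 0.21 at the higher dose, 41.6-fold, with adjusted p = 0.00532. The 95% intervals ran from 3.62 to 4.66 and from 4.86 to 5.90. These comparisons share the control arrays. The higher dose exceeded the lower one by 1.24 ± 0.21, 2.36-fold (adjusted p = 0.0264), so the signal was higher at the higher dose. In RNA of a whole culture, more cells with a transcript and more transcript per cell cannot be told apart. At the lower dose 3 of all 26423 probes passed, or 0.0114%, and Foxj1 ranked 2 by p and 5 by the size of its rise. At the higher dose, where 10.6% of all probes passed in either direction, it ranked 5 by p and 7 by the size of its rise. Its mean lay above the median probe only through the treated arrays. The larger dose-to-dose contrast, in which 13.7% of all probes passed, placed it 1583rd by p.

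The size of the Foxj1 change held while its call did not always: leaving out any 1 of the 6 arrays kept the lower-dose change between 3.95 and 4.30 but raised its adjusted p to between 0.0956 and 0.337. At the higher dose the call was lost without control replicate 2 (adjusted p = 0.0604) or higher-dose replicate 1 (adjusted p = 0.0601), and the dose-to-dose call was lost without any 1 array (adjusted p 0.0552 to 0.132). An exact permutation test of 2 arrays against 2 cannot give a two-sided p below 0.333.

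The other 41 forkhead probes held none past the threshold in limma in any of the 3 comparisons. At an unadjusted p under 0.05, and with Foxj1 counted, 2 of the 42 probes passed at the lower dose, where 6.36% of all probes did, and 4 of 42 at the higher dose, where 29.1% did. The median log2 change of the 42 probes was 0.10 at the lower dose and 0.01 at the higher dose, beside 0.00 and −0.01 over all probes. Arrays of the higher dose and the controls did not overlap for 22 of 42 members, beside 60.1% of all probes, and at the lower dose for 16 of 42, beside 35% of all probes. Of the members, 19 lay above the median probe and 23 below it.

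**Figure D2:**
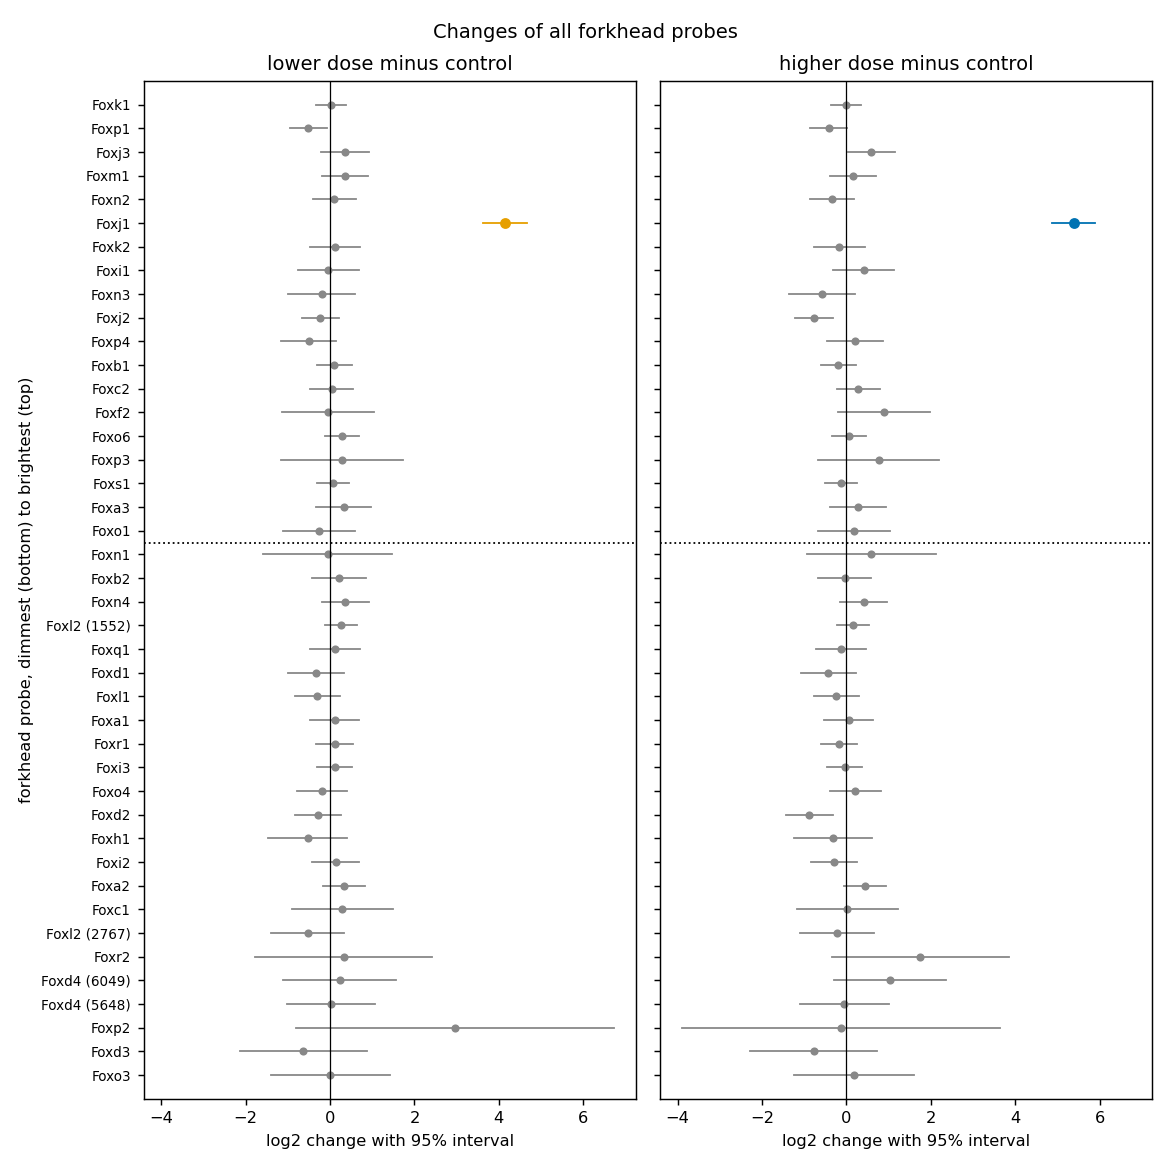
Log2 change with its 95% interval for each of the 42 forkhead probes, at the lower dose (left) and the higher dose (right), from the dimmest at the bottom to the brightest at the top; the dotted line marks the median probe and coloured points passed the threshold. Foxj1 stands alone at 4.14 and 5.38, and Foxj2 and Foxd2 are the lowest of the higher-dose changes whose intervals leave out 0.

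Foxj2 and Foxj3, the other members of the J subfamily and broadly expressed transcription factors, had values on opposite sides of the controls. Foxj2 read 621 and 493 normalized units in the controls, 478 and 466 at the lower dose and 335 and 318 at the higher dose. The higher-dose arrays lay below all others. The change was −0.76 ± 0.17 (95% interval −1.21 to −0.32, adjusted p = 0.0557), just short of the threshold, and it passed in limma under 5 alternatives, among them when the 13211 bright probes, those above the median probe, were tested alone (adjusted p = 0.00466). Foxj3 gave 1170 and 1610 units in controls, 1800 and 1710 at the lower dose and 1860 and 2290 at the higher dose. Its treated arrays all lay above both controls, with changes of 0.35 ± 0.22 (adjusted p = 0.786) and 0.59 ± 0.22 (adjusted p = 0.157), and the higher-dose change passed among bright probes alone (adjusted p = 0.0308).

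Among FoxP members, Foxp1, a repressor with roles in B cells and monocyte differentiation, had the brightest probe. It read 2480 and 2070 units in the controls, 1560 and 1600 at the lower dose and 1820 and 1560 at the higher dose. All 4 treated arrays lay below both controls, but neither change passed (−0.52 ± 0.17, adjusted p = 0.764, and −0.42 ± 0.17, adjusted p = 0.188). Foxp4, a relative active in lung and neural development, gave 481 and 385 units in controls, 377 and 245 at the lower dose and 490 and 503 at the higher dose. The lower dose lay below and the higher dose above the controls after normalization, at −0.50 ± 0.26 (adjusted p = 0.768) and 0.21 ± 0.26 (adjusted p = 0.65). As deposited, the lower dose (391 and 291 units) overlapped with the controls (441 and 384). Foxp3, which defines regulatory T cells, read 85.5 and 202 units in the controls, 104 and 247 at the lower dose and 237 and 210 at the higher dose. Control replicate 1 and lower-dose replicate 1 stood low and the other 4 arrays high, so the groups overlapped between control and lower dose. Foxn1, the factor of thymic epithelium, had the same 2 arrays low, with 76.8 and 182 units in the controls, 70.3 and 185 at the lower dose and 195 and 163 at the higher dose. Foxp2 was close to the floor, with deposited values of 1 and 30, 62 and 42, and 4 and 6 units, and its lower-dose change carried an SE of 1.48.

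Foxm1, the mitotic factor, gave 1680 and 1180 units in controls, 1770 and 1810 at the lower dose and 1620 and 1510 at the higher dose. The higher-dose arrays fell between the controls (0.16 ± 0.21, adjusted p = 0.68, 95% interval −0.39 to 0.70). Foxk1, a repressor linked to autophagy and glycolysis genes, was the brightest member and the steadiest, with 2870 and 2930 units in the controls, 2930 and 2960 at the lower dose and 2840 and 2930 at the higher dose. Its interval at the higher dose was −0.37 to 0.35. Its relative Foxk2 stood at −0.17 ± 0.24 (adjusted p = 0.688).

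FoxO members were dim or without a change past the threshold. Foxo1 read 149 and 166 units in the controls, 169 and 101 at the lower dose and 142 and 220 at the higher dose, and its groups overlapped in each comparison. Foxo6 gave 200 and 195 units in controls, 233 and 249 at the lower dose and 221 and 191 at the higher dose. Foxo3 was among the dimmest probes, at 5.83 and 6.00 units in the controls, so its probe carried almost no signal. Foxo4 read 45 and 45 units as deposited in the controls and 44 and 61 at the higher dose (0.21 ± 0.24, adjusted p = 0.612).

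Of the FoxN members, Foxn3, a checkpoint repressor, read 503 and 636 units in the controls, 621 and 389 at the lower dose and 320 and 448 at the higher dose, the last below both controls (−0.58 ± 0.31, adjusted p = 0.293). Foxn2 gave 771 and 879 units in controls and 599 and 699 at the higher dose (−0.35 ± 0.20, adjusted p = 0.331). Foxn4, which acts in retinal and spinal progenitors and in multiciliated cells of other vertebrates, lay under the median probe and stood at 0.36 ± 0.22 and 0.41 ± 0.22 (adjusted p = 0.784 and 0.303).

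The remaining bright members are factors of particular embryonic tissues. Foxf2, a factor of gut mesenchyme and brain pericytes, read 117 and 274 units in the controls, 172 and 174 at the lower dose and 388 and 287 at the higher dose. Its 2 controls differed more from each other than its lower-dose arrays did, and the higher-dose change was 0.89 ± 0.43 (adjusted p = 0.242), past the threshold among bright probes alone (adjusted p = 0.0391). Foxi1, known from inner ear and kidney, stood at 0.41 ± 0.29 at the higher dose (adjusted p = 0.412), Foxb1 at −0.19 ± 0.16 (adjusted p = 0.491), Foxc2 at 0.28 ± 0.20 (adjusted p = 0.415), Foxs1 at −0.14 ± 0.15 (adjusted p = 0.593) and Foxa3, a liver and gut factor, at 0.28 ± 0.26 (adjusted p = 0.538). Below the median probe, Foxd2 had the smallest p at the higher dose, with 51.3 and 70.2 units in the controls and 35.8 and 29.7 at the higher dose (−0.88 ± 0.22, adjusted p = 0.0647), and passed with arrays scaled to equal medians (adjusted p = 0.0384), with log2(value + 16) (adjusted p = 0.0415) and after a trend with gene length was removed (adjusted p = 0.0365). Foxl2 and Foxd4 had 2 probes each. The Foxl2 probes stood at 0.16 ± 0.15 and −0.22 ± 0.34 at the higher dose, the Foxd4 probes at 1.03 ± 0.53 and −0.06 ± 0.41, and no probe of either gene passed. The 23 probes below the median ranged from −0.64 to 2.96 at the lower dose and from −0.88 to 1.75 at the higher dose, where Foxr2 stood highest (1.75 ± 0.82, adjusted p = 0.237). Foxa1, Foxa2, Foxb2, Foxc1, Foxd1, Foxd3, Foxh1, Foxi2, Foxi3, Foxl1, Foxq1 and Foxr1 were among these dim probes, without a call in any comparison.

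**Figure D3:**
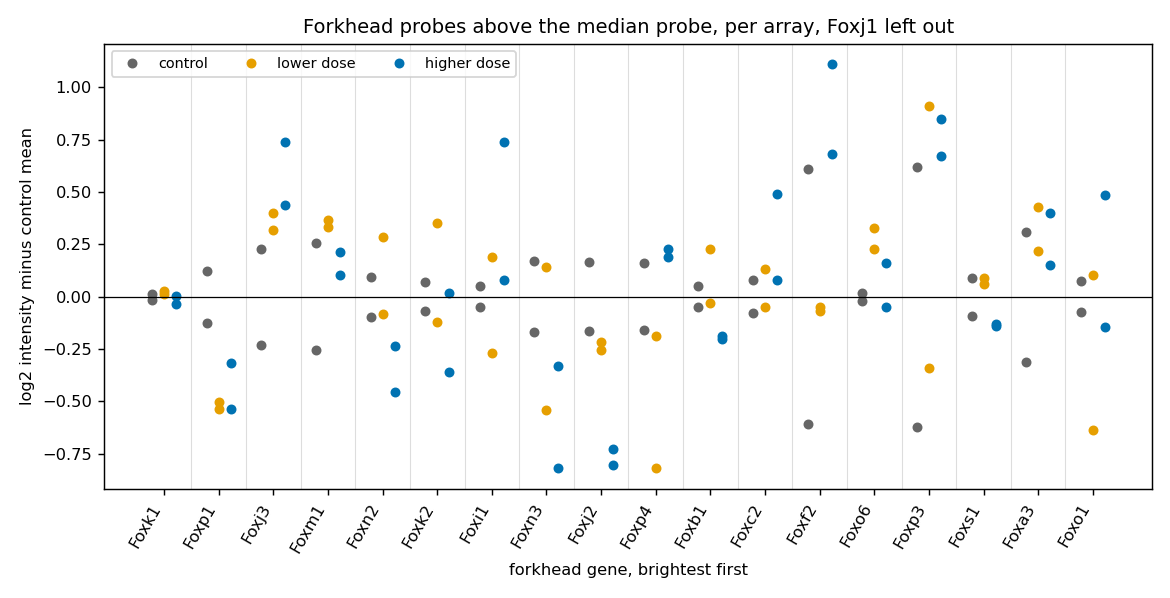
Log2 normalized intensity minus the control mean on each of the 6 arrays for the 18 forkhead probes above the median probe other than Foxj1, brightest gene first. The higher-dose arrays of Foxj2 lie below all others, the treated arrays of Foxp1 lie below and those of Foxj3 above both controls, and the controls of Foxf2 and Foxp3 are far apart.

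Motile cilia are the structures that Foxj1 is known to control. Of 87 of their genes measured out of 108 listed, 0 passed at the lower dose in limma (3 at an unadjusted p under 0.05), and their median change was −0.01, beside 0.00 for all named genes, of which 0.0169% passed. At the higher dose 4 rose and 1 fell, 5.75% of the list beside 11.8% of all named genes (6.37% higher and 5.39% lower), with a median of 0.10. When bright probes alone were tested, 8 of 27 cilia genes rose and 2 fell at the higher dose, with a median of 0.33. Of all 13211 bright probes 5524, or 41.8%, were called in either direction, and 2539 of these calls were rises. The radial spoke protein gene Ropn1l read 243 and 198 units as deposited in the controls, 224 and 233 at the lower dose and 834 and 656 at the higher dose (1.78 ± 0.21, adjusted p = 0.0204). Cfap126, whose product helps to place basal bodies, rose by 1.14 ± 0.15 (adjusted p = 0.0217). The tubulin gene Tuba1a, which is widely expressed outside cilia, rose by 1.22 ± 0.22 (adjusted p = 0.0342), and Tctex1d4, of the dynein light chain family, by 0.91 ± 0.18 (adjusted p = 0.0397). Sntn, which encodes a protein of cilia tips, passed downward with deposited values of 7, 3, 4 and 6 units on the control and lower-dose arrays and −2 and 0 at the higher dose, all near the floor. None of these 5 passed at the lower dose, where 3 of all 26423 probes did. On values as deposited the list median was 0.27 at the lower dose, when all probes stood at 0.22, and 0.14 at the higher dose.

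The promoters of 3 of the genes that rose are shown, with that of Cfap20, a bright cilia gene (0.46 ± 0.17 at the higher dose, adjusted p = 0.155) that holds the core forkhead motif TGTTTAC. The motif was searched on both strands (GTAAACA on the other) in the 250 bases before each start in RefSeq, build GRCm38.p6, and matches are in capitals. It occurred in 6 of 73 cilia genes with a promoter in the table (8.22%), in 1 of 27 forkhead genes, Foxa1, and in 3.54% of all genes. The 3 promoters of genes that rose hold no exact match, nor do that of Tuba1a and the other Cfap126 starts, which are not shown. Variants of these 7 bases were not searched, so whether the promoters hold other forkhead sites was not tested. Besides Cfap20, the cilia genes with the motif were Tekt3, Dnah17, Ak7, Sntn and Cfap43, all below the median probe. Their higher-dose log2 changes were 0.76, 0.04, −1.53, −2.31 and −0.71, and of them Sntn passed, near the floor.
Ropn1l, chr15:31453690-31453939, minus strand: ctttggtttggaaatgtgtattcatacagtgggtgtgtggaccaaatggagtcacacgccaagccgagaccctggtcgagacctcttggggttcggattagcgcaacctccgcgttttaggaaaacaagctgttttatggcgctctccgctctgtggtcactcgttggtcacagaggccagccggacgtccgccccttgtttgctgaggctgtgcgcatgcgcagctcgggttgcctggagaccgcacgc
Cfap126, chr1:171113736-171113985, plus strand: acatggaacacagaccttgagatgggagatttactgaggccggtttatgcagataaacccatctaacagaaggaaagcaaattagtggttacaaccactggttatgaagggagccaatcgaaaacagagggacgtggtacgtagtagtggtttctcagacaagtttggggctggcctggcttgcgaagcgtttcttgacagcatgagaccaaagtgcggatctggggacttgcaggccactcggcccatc
Tctex1d4, chr4:117126563-117126812, plus strand: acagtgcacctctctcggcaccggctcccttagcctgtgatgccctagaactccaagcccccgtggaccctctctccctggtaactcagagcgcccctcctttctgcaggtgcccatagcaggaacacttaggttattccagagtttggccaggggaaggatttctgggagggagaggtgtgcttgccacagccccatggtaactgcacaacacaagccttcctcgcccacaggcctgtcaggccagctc
Cfap20, chr8:95434870-95435119, minus strand: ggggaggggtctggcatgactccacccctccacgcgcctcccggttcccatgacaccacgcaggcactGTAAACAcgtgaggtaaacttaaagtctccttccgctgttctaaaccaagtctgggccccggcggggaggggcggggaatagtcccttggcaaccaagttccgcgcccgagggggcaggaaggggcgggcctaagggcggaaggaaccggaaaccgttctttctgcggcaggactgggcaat

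Of 21 measured regulators of multiciliated cells, 0 passed at the lower dose in limma (2 at an unadjusted p under 0.05). At the higher dose 1 fell (4.76%, beside 11.8% of all named genes), the Notch ligand gene Jag1 (−0.92 ± 0.18, adjusted p = 0.0423), a call lost on values as deposited. Among bright probes alone 0 of 12 rose and 3 fell. Of all 13211 bright probes 41.8% were called in either direction, 2539 of the 5524 calls being rises. Rfx2 and Rfx3, which bind cilia gene promoters beside Foxj1, stood at 0.12 ± 0.22 and 0.10 ± 0.18 at the higher dose (adjusted p = 0.766 and 0.756). Markers of ependyma and choroid plexus, the ciliated cells of the brain, were mostly dim: 13 of 16 lay below the median probe, and Vim, Kl and Rarres2 above it. Without Vim, which macrophage lines also express, the 15 markers summed to 968 and 972 normalized units in the controls, 838 and 977 at the lower dose and 1010 and 1030 at the higher dose. The ependymal markers Tmem212 and Ccdc153 read 9 to 28 units on all arrays as deposited. Of the 16 markers 1 passed, Folr1 at the higher dose (1.15 ± 0.20, adjusted p = 0.0318).

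**Figure D4:**
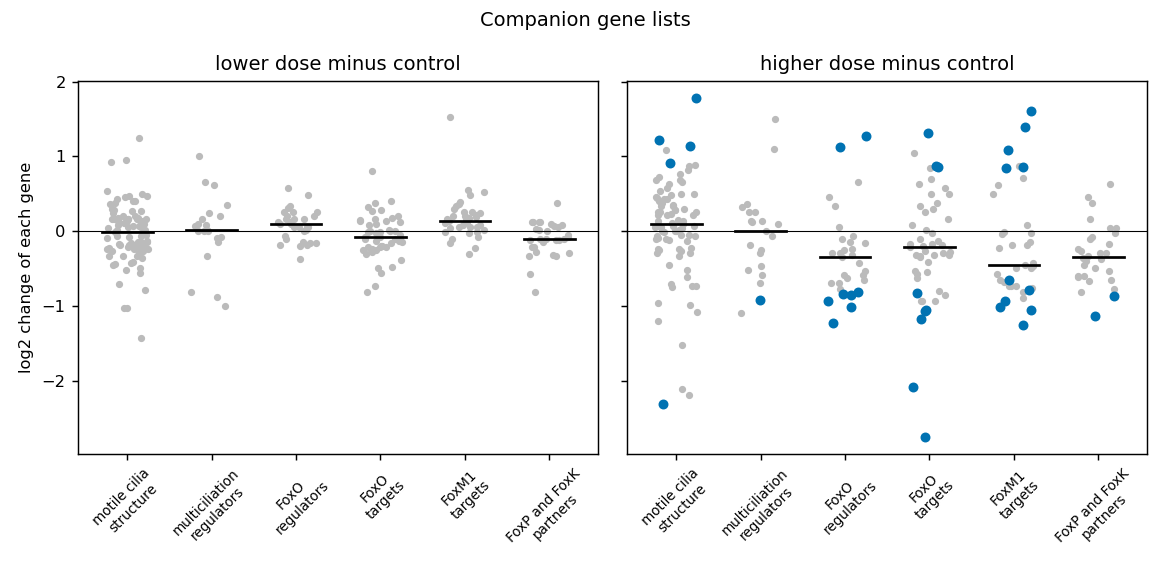
Log2 change of each gene in 6 lists around the forkhead family, at the lower dose (left) and the higher dose (right); coloured points passed the threshold, grey points did not and bars are list medians. At the lower dose no gene passed, and at the higher dose the medians ran from −0.46 (FoxM1 targets) to 0.10 (motile cilia).

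Around FoxO, 2 of 31 measured upstream regulators rose and 6 fell at the higher dose, 25.8% beside 11.8% of all named genes, with a median of −0.35 beside −0.01 for all probes. One of the rises, the export receptor gene Xpo1, read −2 to 0 units on the control and lower-dose arrays and 2 and 2 at the higher dose, which is no usable signal. The falls included Cdk2 (−1.23 ± 0.16, adjusted p = 0.0216), the stress kinase gene Mapk8 (−0.94 ± 0.16, adjusted p = 0.03) and Sgk1 (−1.01 ± 0.17, adjusted p = 0.0313), a kinase that phosphorylates FoxO proteins as AKT does. Akt1 itself stood at −0.24 ± 0.15 (adjusted p = 0.36). Of 49 FoxO targets 3 rose and 6 fell, 18.4% beside the same 11.8%, with a median of −0.21. Most of both lists lay above the median probe, 28 of 31 regulators and 37 of 49 targets. Among bright probes alone 1 of 28 regulators rose and 12 fell, and 8 of 37 targets rose and 10 fell. In that fit 41.8% of all bright probes were called in either direction. The translation inhibitor gene Eif4ebp1 rose by 1.31 ± 0.15 (adjusted p = 0.0199), Irs2, of insulin signalling, fell (−1.05 ± 0.19, adjusted p = 0.0337), and the dim probes of Pck1 (−2.08 ± 0.26) and Fasl (−2.75 ± 0.34) fell at adjusted p = 0.0204. Cdkn1b (0.63 ± 0.23, adjusted p = 0.142) and Sesn1 (−0.94 ± 0.21, adjusted p = 0.0517), both classical FoxO targets, did not pass.

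FoxM1 targets split in both directions while Foxm1 itself did not pass. Of 37 measured, 5 rose and 6 fell at the higher dose, 29.7% of the list beside 11.8% of all named genes, with a median of −0.46. Cks2, which binds cyclin-dependent kinases, rose by 1.60 ± 0.21 (adjusted p = 0.0207) and the securin gene Pttg1 by 1.39 ± 0.17 (adjusted p = 0.0204). Cyclin A2, Ccna2, fell (−1.05 ± 0.16, adjusted p = 0.0252), as did the kinesin gene Kif23 (−1.01 ± 0.18, adjusted p = 0.0334). Plk1 stood at −0.23 ± 0.14 (adjusted p = 0.361). On values as deposited 7 rose and 2 fell, with a median of −0.50, and among bright probes alone 8 of 34 rose and 16 fell. Of all 13211 bright probes 41.8% were called in either direction, 2539 of the 5524 calls being rises. Of 30 partners of FoxP and FoxK proteins, 0 rose and 2 fell, 6.67% beside 11.8% of all named genes. These were the corepressor genes Ctbp1 (−1.13 ± 0.16, adjusted p = 0.0239) and Ctbp2 (−0.87 ± 0.19, adjusted p = 0.0492). Among bright probes alone 2 of 28 partners rose and 10 fell, beside 41.8% of all bright probes called in either direction. In these 4 lists 0 genes passed at the lower dose in limma, and 5, 2, 1 and 1 genes of the FoxO target, FoxO regulator, FoxM1 and partner lists had an unadjusted p under 0.05, as did 6.36% of all probes. Over all 6 lists 36 of 254 genes passed at the higher dose, beside 11.8% of all named genes. With any 1 array left out all 36 kept their direction, while calls fell over all probes as well as in the lists. Across 10267 bright genes the higher-dose change followed gene span (Spearman's rho = −0.326, genes not being independent). Removing its trend moved the list medians to −0.33 for FoxM1 targets, −0.22 for FoxO regulators, −0.20 for FoxO targets and −0.29 for FoxP and FoxK partners. The medians became 0.18 for motile cilia and 0.13 for regulators of multiciliated cells.

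Among 11377 other named probes above the median, the one whose values over the 6 arrays ran most like Foxj1 was Hnrnpul1 (Pearson's r = 0.9897), followed by Zdhhc9 (0.9808), Wdr88 (0.9767), Cpe (0.972) and Cpt1c (0.9705). Their changes were far smaller, from 0.21 to 0.56 at the lower dose and from 0.28 to 0.84 at the higher dose, and of the 5 Wdr88 passed at the higher dose (adjusted p = 0.0348). With 94 probes above r = 0.9 over 6 arrays, such likeness is a description only.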

How the data were processed

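Cy5-labelled cDNA of 6 BV2 samples was put on Phalanx mouse OneArrays, per the labels' protocols. As deposited, the values are linear spot intensity, whole numbers from −21 to 65489, background-subtracted since some are below 0. The submitters' processing notes name RMA, but the array medians differ, so the arrays were quantile-normalized, values under 1 were set to 1 and log2 was taken. Probe names came from the platform table (20377 of 26423 probes named), updated through RefSeq, GRCm38.p6. All 6 arrays were fitted together over all probes in limma 3.58.1 under R 4.3.3 (a mean for each group, with 3 residual degrees of freedom, tested on both sides, with a threshold of 0.05 after Benjamini-Hochberg adjustment). Lists used each gene's brightest probe. Figures used matplotlib 3.10.9.

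The members and lists were chosen with earlier results of these data known. Genes named were Foxj1, members past the threshold or above the median probe, genes with disagreeing probes, up to 4 genes with the smallest p per list, and fixed reference genes. Sntn, Folr1, Foxd2, Foxn1, Foxn4, Foxo3, Foxo4, Foxp2, Foxr2, Cfap20, Tekt3, Dnah17, Ak7 and Cfap43 were named after their values were seen. Alternatives were no normalization, equal medians, log2(value + 16), bright probes alone, the replicate block, only the groups compared, array weights, a trended prior, removal of the gene span trend, leaving out each array, and, chosen after seeing the data, a crossed block. The arrays carry no slide or scan labels in the files used here, so no batch was fitted.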

Additional observations from a re-analysis of the deposited data

Results flagged for a closer look

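Foxj1 differed between the doses: its higher-dose level exceeded its lower-dose level by a log2 change of 1.24 ± 0.21 (limma adjusted p = 0.0264, both higher-dose arrays above both lower-dose arrays). After normalization Foxp4 had both lower-dose arrays below and both higher-dose arrays above the controls. The gaps were narrow, 377 against 385 units and 490 against 481. As deposited, the lower dose (391 and 291 units) overlapped with the controls (441 and 384). The share of all probes with such a pattern was not counted. The difference between the doses, 0.71 ± 0.26, did not pass in limma over all probes (adjusted p = 0.133) and passed among bright probes alone (adjusted p = 0.0185). With 2 arrays per group, no single array was tested as standing apart.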

How the results depend on the processing

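Foxj1 kept its direction under all 16 alternatives in each comparison, with log2 changes of 3.90 to 4.41 at the lower dose, 5.13 to 5.55 at the higher dose and 1.02 to 1.39 between doses. Its lower-dose call, and with it the count of forkhead probes called, was lost (0 probes) with equal medians (4.16, adjusted p = 0.0633), array weights (4.14, adjusted p = 0.084) and only the 2 groups compared (4.14, adjusted p = 0.202), and the dose-to-dose call with only the 2 groups compared (0 probes, 1.24, adjusted p = 0.055). Without each array in turn, Foxj1 ranged from 3.95 to 4.30, 5.19 to 5.55 and 1.06 to 1.39, with its lower-dose and dose-to-dose calls lost in each of these fits. Companion genes called became fewer in them at the higher dose and between doses, as did calls over all probes. At the higher dose 3 forkhead probes were called with equal medians, 3 with log2(value + 16) and 4 of 19 among bright probes. Foxj1 was among them each time, and it counted as bright only through its treated arrays. With array weights, a trended prior or the span trend removed, 2 each were called. Between doses 2 were called with log2(value + 16) and 4 among bright probes, Foxj1 again among them. Foxj2 or Foxd2 was among the added forkhead calls at the higher dose. Calls over all probes there also went from 2803 to 3144 with equal medians and 4762 with log2(value + 16). They numbered 3882 with array weights and 5000 with a trended prior. With the span trend removed 2634 of 20336 probes were called, and among bright probes 41.8%. Between doses 3629 calls became 5662 with log2(value + 16), and 6163 of 13211 bright probes were called. Companion genes called numbered 63 with log2(value + 16), 80 among bright probes, 69 with a trended prior and 16 with only the 2 groups compared at the higher dose, and 71, 81, 73 and 0 between doses. Over all probes 1584 were called with only the 2 groups compared at the higher dose and 7 between doses, where a trended prior gave 5762. The cause of the added and lost calls was not tested.

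Deviations of same-numbered arrays from the group means correlated at 0.0326 for control and lower dose, 0.313 for control and higher dose and −0.226 for both doses. These differ in sign, and whether same-numbered arrays pair was not tested. With the replicate block Foxj1 stayed at 4.14 (adjusted p = 0.309, 0 forkhead probes called) at the lower dose, while companion genes numbered 0 at the higher dose and 15 between doses. Of all 26423 probes, that fit called 0 at the lower dose, 11 at the higher dose and 1395 between doses. With the lower-dose numbers crossed, chosen after seeing the data, the lower dose again gave 0 forkhead probes (Foxj1 4.14, adjusted p = 0.25), and companion genes numbered 30 and 41. The crossed fit called 0 of all probes at the lower dose, 2410 at the higher dose and 3481 between doses.

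For the 18 other bright forkhead probes, 821 of 864 values kept direction and side of the threshold, and 33 changed sign. Sign changes larger than the SE came from leaving out 1 array for Foxp3 (−0.34 to 0.91), Foxf2 (−0.67 to 0.55), Foxn3 (−0.54 to 0.14) and Foxo1 (−0.64 to 0.10) at the lower dose, Foxm1 (−0.10 to 0.41) and Foxa3 (−0.04 to 0.59) at the higher dose and Foxp3 between doses (−0.14 to 1.11). Between doses they also came from no normalization for Foxp1 (−0.17) and Foxj3 (−0.02), where the median of all probes moved to −0.25, and from removal of the span trend for Foxk1 (0.11). With 2 arrays per group and no detection calls, changes of dim probes have wide errors.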
